A study of Mus musculus with 44 samples.

Results

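The genes described are the chitinase-like genes and the genes of alternative macrophage activation in mouse skin given bleomycin, 9 genes of the 43411 in the count table. They are the chitinase-like genes Chil1, Chil3 and Chil4, the macrophage products Arg1, Retnla and Mrc1, and the receptor genes Il4ra, Il13ra1 and Il13ra2. All 9 were found by matching Ensembl identifiers to symbols, and 8 of them passed the filter on low values (a mean normalized count above 3). Chil4 did not. The members were chosen by their differences of treated and recovered mice from saline in these data, so those differences are given here as a description and without a p-value. The comparisons of 4 with 2 weeks of bleomycin, and of 10 with 6 weeks of recovery, were not among those differences and were tested. They are made from the same group levels as the comparisons that were used. Their p-values are therefore not independent of the choice and are no separate evidence for the members.

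RNA from the back skin of 44 mice was sequenced. All were WT female C57Bl/6 mice. The labels give an age of 8 weeks for all of them, which in the methods is the age of the mice injected. Mice taken after longer treatment or recovery were therefore older when taken. Age cannot be told apart from the time of treatment or recovery. Bleomycin was injected under the skin of the back each day, as 100 µL at 1 U/mL according to the labels, although the study's sources do not all give the same concentration, and the control mice were given saline. There were 10 mice given saline, 10 given bleomycin for 2 weeks, 10 given it for 4 weeks, 6 mice after 6 weeks of recovery and 8 after 10 weeks of recovery. According to the methods, the recovered mice had first received bleomycin for 4 weeks. Bleomycin cuts DNA and, injected repeatedly, causes inflammation and thickening of the dermis at the injected site, so the model shows a local response to the drug. When the saline mice were taken is not given in the sources used here. A value is a normalized count, the number of reads on a gene divided by 1 size factor per mouse.

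Macrophages exposed to the cytokines IL-4 or IL-13 enter a state called alternative activation, in contrast to the classical activation that follows interferon or bacterial products. IL-4 binds a receptor whose alpha chain is Il4ra, paired with the common gamma chain or with Il13ra1, and the pair signals through STAT6. Il13ra2 binds IL-13 with high affinity and is known mainly as a decoy. In mouse macrophages Arg1, Retnla, Chil3 and Mrc1 are the usual markers of that state. The chitinase-like proteins have the fold of chitinases but do not cut chitin.

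Each mouse had between 8509094 and 15285577 reads on genes, and the precision of a low count is limited by that depth. The 2 mice least like their own groups over all genes were the 2-week mouse 2 (median r 0.9378 with its group) and the saline mouse 1 (0.9421), and results that rest on either are given with and without it. Keratinocyte markers were present in every group, with medians of the summed level from 217952 to 233981. Markers of macrophages stood at medians of 41473 at 2 weeks and 36478 at 4 weeks of bleomycin, against 19598 with saline. These are biopsies of whole skin, so fewer cells of a type and less RNA per cell cannot be told apart.

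Chil3 and Chil4 are close copies and lie side by side on chromosome 3 of GRCm38, both on the minus strand, Chil3 from 106147554 to 106167564 and Chil4 from 106201490 to 106219507. Their coding sequences (GENCODE vM21) were identical in 94.4% of 1209 aligned columns, and 18.5% of the 50-base stretches of the Chil3 transcript occurred unchanged in Chil4. Reads from such shared stretches could have been counted on either gene or on neither. A read pair can be told apart where it covers any base that differs, in the stretch shown or in another. The 60 coding bases from position 500 to 559, counted from the start codon, are shown because they hold 10 of the differing bases, in capitals:
Chil3: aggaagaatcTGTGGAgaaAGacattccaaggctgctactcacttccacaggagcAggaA
Chil4: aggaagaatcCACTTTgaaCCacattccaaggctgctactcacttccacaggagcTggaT

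The sequence around the start of each gene was taken from RefSeq (GRCm38.p6), where 8 of the 9 members matched an entry, all but Arg1. Each window also held bases past the start, and motifs were searched and their shares taken over whole windows. Only the part before the first annotated start is shown, 250 bases for Chil3 (chr3:106167565-106167814, minus strand) and 192 for Retnla (chr16:48842359-48842550, plus strand). These genes are shown because they had the largest differences among the members, in opposite directions. A motif found in each is in capitals:
Chil3: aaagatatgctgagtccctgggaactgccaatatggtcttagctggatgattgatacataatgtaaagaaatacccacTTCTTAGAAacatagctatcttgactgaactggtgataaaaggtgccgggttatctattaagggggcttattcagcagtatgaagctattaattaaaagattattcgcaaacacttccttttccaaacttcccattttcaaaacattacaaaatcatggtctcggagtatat
Retnla: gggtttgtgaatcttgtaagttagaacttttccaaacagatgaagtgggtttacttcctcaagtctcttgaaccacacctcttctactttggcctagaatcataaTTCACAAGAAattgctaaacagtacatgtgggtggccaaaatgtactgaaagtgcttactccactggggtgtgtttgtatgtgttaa
STAT6 is known for binding TTC and GAA with 4 bases between them, and other STAT factors the same letters with 3 bases between. Each motif reads the same on both strands, and the 2 motifs shared no match. In the Retnla window TTCACAAGAA lay from -145 to -136 relative to the RefSeq start, and it was the only match of the first motif in the 8 member windows. That motif was present in 6.95% of all 32851 windows. The second motif, present in 8.3% of all windows, was found in the windows of Chil3, from -172 to -164, and of Chil4, from -200 to -192. A match is a description of the letters and not a measured site.

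Chil3 (chitinase-like 3, also called Ym1) is a secreted protein of mouse macrophages and neutrophils, and it had the largest difference from saline among the members. Normalized counts with saline were 3.58, 0.0, 8.29, 0.0, 1.21, 2.42, 2.58, 1.15, 3.43 and 3.75 in mice 1 to 10. At 2 weeks of bleomycin they were 448.4, 555.3, 434.9, 433.1, 429.4, 155.6, 288.9, 358.4, 206.7 and 225.3, and at 4 weeks 235.6, 150.6, 316.7, 102.6, 145.5, 43.5, 179.5, 69.9, 243.1 and 124.1. All 20 treated mice lay above every saline mouse. After recovery the range was 1.03 to 3.08 at 6 weeks (n = 6) and 0.0 to 3.71 at 10 weeks (n = 8), within the range of saline and below every mouse at 4 weeks of bleomycin.

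The mean of Chil3 was 353.6 ± 129 (SD, n = 10) at 2 weeks and 161.1 ± 84.4 (SD, n = 10) at 4 weeks, against 2.64 ± 2.43 (SD, n = 10) with saline. The differences from saline on the log2(normalized count + 1) scale were 6.8 ± 0.34 (SE) and 5.57 ± 0.34 (SE). Since saline was near 0, they depend on the added count and were 7.81 and 6.57 with 0.1 in place of 1. After recovery the log2 differences from saline were 0.04 ± 0.39 (SE) and -0.11 ± 0.36 (SE). Between 2 and 4 weeks of bleomycin Chil3 fell by 1.23 ± 0.34 (SE) on the log2 scale (limma, adjusted p = 0.0224), a fold of 0.425. Both groups were also in the comparisons that chose the gene. All 10 mice at 4 weeks were below the median at 2 weeks, and 6 of them below every 2-week mouse. The fall was not past the threshold with a pseudocount of 0.1 (adjusted p = 0.227), while over the alternatives the log2 difference ranged from -1.24 to -1.14 and the adjusted p from 0.00241 to 0.227. In the recovered mice Chil3 rested on 0 to 4 reads per mouse, too few to compare 6 with 10 weeks of recovery.

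**Figure D1:**
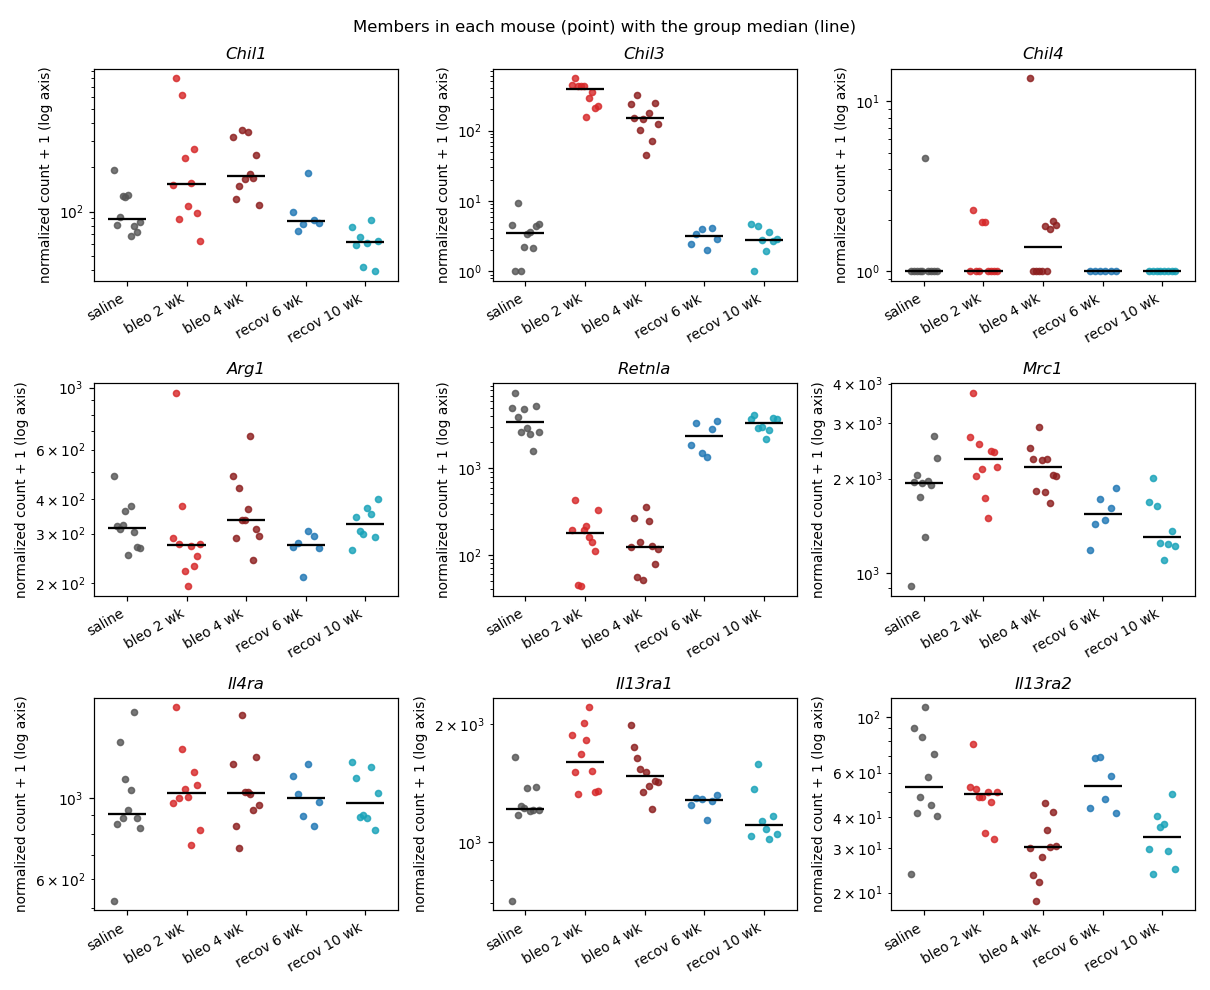
Normalized count + 1 (log axis) of the 9 members in each of the 44 mice, in 5 groups from saline to 10 weeks of recovery, where each point is a mouse and each line a group median. The treated mice are all above saline for Chil3 and all below it for Retnla, and for each of the other members every group overlaps saline.

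Chil1 (chitinase-like 1, also called YKL-40 or BRP-39) is secreted by macrophages, neutrophils and several tissue cells, and lies on chromosome 1 from 134182176 to 134190181. With saline its normalized count ranged from 67.0 to 190.8 with a median of 87.85. At 2 weeks of bleomycin the 10 mice had 151.5, 802.4, 88.4, 612.7, 230.5, 107.6, 155.9, 264.7, 96.6 and 62.2, and at 4 weeks the range was 110.1 to 355.3 with a median of 172.5. Mice 2 and 4 of the 2-week group stood far above the others of their group, and the same mice had the highest summed neutrophil markers of it (4376 and 3418, against a group median of 1012). The part of those cells in the level of Chil1 was not tested.

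The mean of Chil1 was 257.2 ± 250 (SD, n = 10) at 2 weeks and 215.4 ± 94 (SD, n = 10) at 4 weeks, against 104.5 ± 38.3 (SD, n = 10) with saline. The log2 differences from saline were 0.87 ± 0.31 (SE) and 0.99 ± 0.31 (SE). The first was 0.64 without the 2-week mouse 2 and then no longer met the criteria used for all genes, nor did it in a fit of these 2 groups alone. The second met them in every alternative run. Means after recovery were 100.8 ± 41.1 (SD, n = 6) at 6 weeks and 61.29 ± 16.3 (SD, n = 8) at 10 weeks, log2 differences from saline of -0.05 ± 0.36 (SE) and -0.73 ± 0.33 (SE), and 6 of the 8 mice at 10 weeks were below every saline mouse. Neither tested comparison passed: the log2 difference was 0.12 ± 0.31 (SE) for 4 against 2 weeks of bleomycin (limma, adjusted p = 0.876), a value whose sign turned with edgeR and DESeq2 (-0.25 and -0.26), and -0.68 ± 0.38 (SE) for 10 against 6 weeks of recovery (limma, adjusted p = 0.462).

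Chil4 (chitinase-like 4, also called Ym2) was at or near 0 in these biopsies, although 94.4% of its aligned coding sequence is that of Chil3. It had no read in 9 of 10 saline mice, 7 of 10 mice at 2 weeks and 5 of 10 at 4 weeks of bleomycin. The highest values were 12.66 in mouse 1 at 4 weeks, from 10 reads, and 3.637 in saline mouse 6, from 3 reads. In all recovered mice it had 0 reads, which allows up to 3 reads per mouse. This limit covers counting error only. The gene was not tested.

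Retnla (resistin-like alpha, also called FIZZ1 or RELM-alpha) is a small secreted protein and a usual marker of alternatively activated macrophages, also made by epithelial and fat tissue. It lies on chromosome 16 from 48842551 to 48844461. Normalized counts with saline were 5006.5, 7518.3, 3940.4, 2668.7, 4912.0, 2947.0, 2536.2, 1576.2, 5244.6 and 2628.3. At 2 weeks of bleomycin they were 195.0, 426.6, 43.2, 42.6, 192.2, 212.3, 159.4, 139.4, 110.2 and 333.3, and at 4 weeks 121.6, 269.1, 54.7, 140.1, 49.5, 358.9, 247.2, 124.4, 77.5 and 116.2. The highest treated mouse (426.6) was below the lowest saline mouse (1576.2). After 6 weeks of recovery the 6 mice had 1872.6, 3390.1, 1502.8, 1340.6, 2844.8 and 3503.8, and after 10 weeks the 8 mice had 3785.1, 4146.8, 2948.6, 2997.6, 2219.5, 2768.5, 3852.2 and 3761.7. All recovered mice were above every treated mouse, and 2 of the 6 at 6 weeks were below every saline mouse.

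The mean of Retnla was 185.4 ± 120 (SD, n = 10) at 2 weeks and 155.9 ± 102 (SD, n = 10) at 4 weeks, against 3898 ± 1780 (SD, n = 10) with saline, log2 differences of -4.57 ± 0.34 (SE) and -4.77 ± 0.34 (SE). After recovery the log2 differences from saline were -0.66 ± 0.4 (SE) at 6 weeks and -0.13 ± 0.36 (SE) at 10 weeks. In the tested comparisons, the difference was -0.2 ± 0.34 (SE) for 4 against 2 weeks of bleomycin (limma, adjusted p = 0.789) and 0.53 ± 0.41 (SE) for 10 against 6 weeks of recovery (limma, adjusted p = 0.616), with 7 of the 8 mice at 10 weeks above the median at 6 weeks. Neither passed.

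The direction of Retnla was opposite to that of the macrophage markers, of which 13 of 14 rose at 2 weeks and 13 of 14 at 4 weeks (limma, adjusted p below the threshold). Of the 8 fat cell markers 4 fell at 2 and 4 at 4 weeks, and their summed level ranged from 17620 to 33864 with saline, 11577 to 29327 at 2 weeks and 14554 to 24394 at 4 weeks. The summed eosinophil markers ranged from 392 to 1578 with saline, 256 to 666 at 2 weeks and 169 to 407 at 4 weeks, while the defining eosinophil genes Epx and Ear1 had at most 3 reads in every mouse. The largest part of that sum was Ear2, a ribonuclease also made by macrophages, which fell by 1.29 and 1.43 on the log2 scale (limma, adjusted p = 1.22e-06 and 1.86e-07). Another marker, Prg2, the eosinophil major basic protein, was higher at 2 weeks, by 1.27 on the log2 scale (limma, adjusted p = 0.0175). With saline Prg2 had at most 3 reads in every mouse, so this value starts near the floor. The part of fat cells and eosinophils in the lower level of Retnla was not tested.

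**Figure D2:**
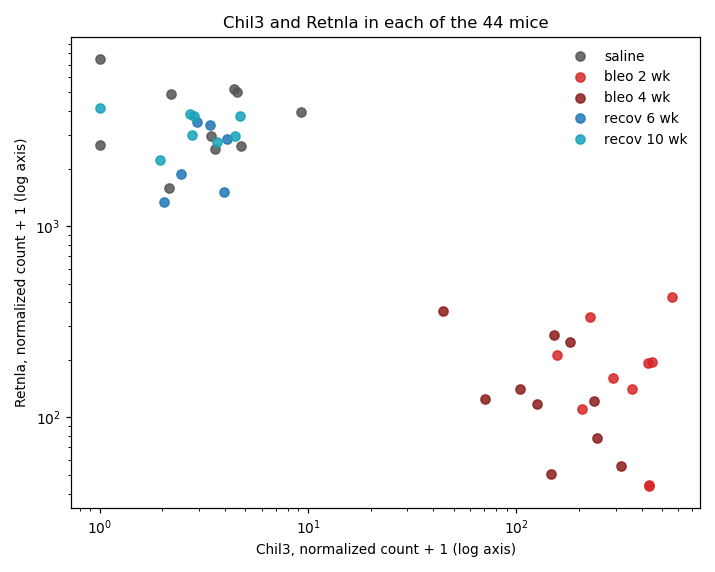
Retnla against Chil3 in each of the 44 mice, as normalized count + 1 on log axes, with each point a mouse and each color a group. The 20 treated mice (43.5 to 555.3 for Chil3, 42.6 to 426.6 for Retnla) lie at the lower right, and the saline and recovered mice at the upper left, with no mouse between.

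Arg1 (arginase 1) splits arginine into ornithine and urea and is a usual marker of alternative activation, although skin cells other than macrophages also express it. It lies on chromosome 10 from 24915221 to 24927484. The normalized count ranged from 250.9 to 481.7 with saline (median 313.9), 194.0 to 957.2 at 2 weeks (median 271.4), 240.9 to 669.1 at 4 weeks (median 335.5), 208.5 to 306.4 at 6 weeks of recovery (median 271.4) and 260.9 to 398.1 at 10 weeks (median 324.5). All groups overlapped, and the 2-week mouse 2, at 957.2, was far above the next mouse of its group, at 374.8. Log2 differences from saline were between -0.26 ± 0.2 (SE), at 6 weeks of recovery, and 0.17 ± 0.18 (SE), at 4 weeks of bleomycin. Between 2 and 4 weeks of bleomycin the difference was 0.28 ± 0.18 (SE, limma, adjusted p = 0.373). It was 0.47 without the 2-week mouse 2 (limma, adjusted p = 0.0307), so the test depended on 1 mouse, and the change was then still under the fold threshold. Between 6 and 10 weeks of recovery it was 0.28 ± 0.21 (SE, limma, adjusted p = 0.61).

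Mrc1 (CD206) is the mannose receptor of macrophages, which takes up glycoproteins, and it is expressed by resident macrophages of the dermis. It lies on chromosome 2 from 14229392 to 14332057 and holds the microRNA gene Mir511 on the same strand. Its normalized count ranged from 910.9 to 2733 with saline, 1494 to 3740 at 2 weeks, 1666 to 2915 at 4 weeks, 1183 to 1869 at 6 weeks of recovery and 1102 to 2001 at 10 weeks. Means were 1880 ± 501 (SD, n = 10), 2348 ± 615 (SD, n = 10), 2170 ± 373 (SD, n = 10), 1549 ± 240 (SD, n = 6) and 1436 ± 306 (SD, n = 8). Each group overlapped every other. The log2 differences from saline were 0.33 ± 0.14 (SE), 0.24 ± 0.14 (SE), -0.24 ± 0.17 (SE) and -0.36 ± 0.15 (SE), all under the fold threshold. Those of the macrophage markers had a median of 1.16 at 2 weeks and 0.99 at 4 weeks. The tested differences were -0.09 ± 0.14 (SE) for 4 against 2 weeks (limma, adjusted p = 0.777) and -0.12 ± 0.17 (SE) for 10 against 6 weeks of recovery (limma, adjusted p = 0.815).

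The shared receptor chain Il4ra differed from saline by at most 0.13 on the log2 scale in the 4 comparisons. Its gene lies on chromosome 7 from 125552120 to 125579474 and overlaps the antisense gene Gm44876. Whether the counting used strand is not given, so reads of the 2 cannot be told apart here. The median normalized count was 905.6 with saline, 1033 at 2 weeks and 1031 at 4 weeks of bleomycin, and 999.9 and 966.5 after recovery, while single mice ranged from 523.4, in a saline mouse, to 1770, in a 2-week mouse. Log2 differences from saline were between 0.04 ± 0.16 (SE) and 0.13 ± 0.15 (SE). For 4 against 2 weeks the difference was -0.03 ± 0.15 (SE, limma, adjusted p = 0.946) and for 10 against 6 weeks of recovery -0.01 ± 0.18 (SE, limma, adjusted p = 0.989).

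Il13ra1, which pairs with Il4ra to bind IL-4 or IL-13, lies on chromosome X from 36112110 to 36171259. The normalized count ranged from 709.4 to 1648 with saline (mean 1236 ± 235 SD, n = 10), 1328 to 2208 at 2 weeks (1667 ± 307 SD, n = 10) and 1216 to 1986 at 4 weeks (1524 ± 221 SD, n = 10). All 20 treated mice were above the median of saline, and 5 of 10 at 2 weeks exceeded every saline mouse. The log2 differences of 0.44 ± 0.1 (SE) and 0.32 ± 0.1 (SE) stayed under the fold threshold. After recovery the means were 1262 ± 63.7 (SD, n = 6) and 1179 ± 198 (SD, n = 8), with log2 differences from saline of 0.05 ± 0.12 (SE) and -0.06 ± 0.11 (SE). The tested differences were -0.12 ± 0.1 (SE) for 4 against 2 weeks (limma, adjusted p = 0.547) and -0.11 ± 0.13 (SE) for 10 against 6 weeks of recovery (limma, adjusted p = 0.749).

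Il13ra2, the high-affinity IL-13 receptor that fibroblasts and epithelial cells can express, was the receptor that differed most between groups. It lies on chromosome X from 147383476 to 147429192. Normalized counts at 2 weeks of bleomycin were 51.5, 76.7, 50.4, 47.1, 46.9, 33.6, 49.3, 44.7, 31.8 and 49.3, and at 4 weeks 29.1, 22.4, 17.6, 21.1, 26.7, 44.3, 34.6, 29.5, 40.7 and 29.7. All 10 mice at 4 weeks were below the median at 2 weeks, and 7 of them below every 2-week mouse. The fall of 0.7 on the log2 scale, a difference of -0.7 ± 0.2 (SE), passed the test (limma, adjusted p = 0.0289), but the adjusted p was 0.0609 without the 2-week mouse 2, which was the highest of its group, and the difference then -0.62. Over the alternatives the adjusted p ranged from 0.0126 to 0.0609. As for Chil3, both groups were also in the comparisons that chose the gene. Of the fibroblast markers, 2 of 8 rose between these groups and the rest did not pass. Their part in this fall was not tested.

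The saline mice had Il13ra2 counts from 22.65 to 107.9 with a median of 51.72, and the medians were 29.33 at 4 weeks of bleomycin, 51.84 at 6 weeks of recovery and 32.2 at 10 weeks. Log2 differences from saline were -0.21 ± 0.2 (SE) at 2 weeks, -0.91 ± 0.2 (SE) at 4 weeks, -0.05 ± 0.23 (SE) at 6 weeks of recovery and -0.75 ± 0.21 (SE) at 10 weeks. The level thus did not move in 1 direction from treatment through recovery, and saline overlapped every group. Between 6 and 10 weeks of recovery the values ranged from 40.42 to 68.18 and from 22.68 to 48.49, with 7 of 8 mice at 10 weeks below every mouse at 6 weeks. That difference, -0.7 ± 0.24 (SE), did not pass (limma, adjusted p = 0.265). The 10-week difference from saline did not meet the criteria in a fit of these 2 groups alone.

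The comparisons with saline share the same 10 control mice. At 2 weeks 3 of the 8 tested members met the criteria (adjusted p below 0.05 and a fold change above 1.5), Chil3 and Chil1 higher and Retnla lower, where 16.7% of the 17037 genes tested did (9.3% higher and 7.43% lower). At 4 weeks 4 members did, the same genes and Il13ra2 (lower), where 17.9% of all genes did (10.5% higher and 7.37% lower). At 6 weeks of recovery it was 0 members with limma (also 0 at an unadjusted p below 0.05, 0 with edgeR and 0 with DESeq2), where 5.04% of all genes did, and at 10 weeks 1 member, Il13ra2, lower, where 3.05% did and 0.998% were lower. Between 4 weeks of bleomycin and 6 weeks of recovery, 4 members met them, where 11.9% of all genes did, 4.8% higher and 7.14% lower. Chil3 (-5.53 ± 0.39, SE) and Chil1 (-1.04 ± 0.36, SE) were lower after recovery and Retnla (4.11 ± 0.4, SE) and Il13ra2 (0.86 ± 0.23, SE) higher. These counts describe how the members were chosen and nothing is read from them.

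Chil3 and Retnla were the 2 members whose groups did not overlap at 2 weeks, at 4 weeks, and between 4 weeks of bleomycin and 6 weeks of recovery. Over all genes 4.77%, 6.52% and 10.2% did not overlap in these comparisons. In the others, 0 members were apart, where 1.95% (6 weeks of recovery against saline), 0.428% (10 weeks of recovery against saline), 0.182% (4 against 2 weeks of bleomycin) and 0.757% (10 against 6 weeks of recovery) of all genes were. In the tested comparison of 4 with 2 weeks, 2 of 8 members met the criteria, both lower, where 2.35% of all genes did and 0.863% were lower. Between 6 and 10 weeks of recovery, where Chil3 was too low to be compared, 0 members met them with limma, edgeR and DESeq2 (1 at an unadjusted p below 0.05, with limma), where 0.088% of all genes did. The median log2 difference from saline of the members was 0.23 at 2 weeks and 0.21 at 4 weeks, where that of all genes was 0.0025 and -6e-04. The members were chosen by these differences, which go in both directions, and nothing is read from the medians.

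**Figure D3:**
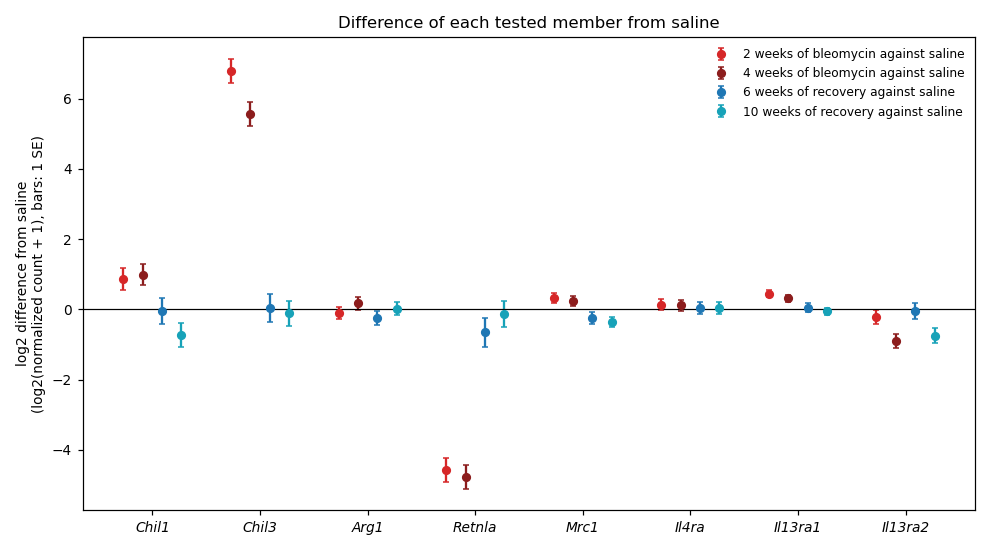
Difference from saline of the 8 tested members, on the log2(normalized count + 1) scale, with bars of 1 SE and 1 color for each of 4 groups. Chil3 lies at 6.8 and 5.57 in the treated groups and Retnla at -4.57 and -4.77, and after recovery Chil3 lies at 0.04 and -0.11 and Retnla at -0.66 and -0.13, while the other members lie between -1 and 1 in every group.

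Per length of exon, Retnla had the highest level of the 9 members with saline, 6507 ± 2968 normalized counts per kb (SD, n = 10), and after 6 and 10 weeks of recovery. At 2 and 4 weeks of bleomycin it had 309.6 ± 200.6 (SD, n = 10) and 260.3 ± 170.7 (SD, n = 10) per kb, with means below those of Il13ra1 (449.0 ± 82.67 and 410.5 ± 59.57, SD, n = 10) and Mrc1 (368.6 ± 96.56 and 340.6 ± 58.48, SD, n = 10). These intervals of 1 SD overlap at 2 weeks and at 4 weeks for all 3 genes. Chil3 was at 1.618 ± 1.487 per kb with saline (SD, n = 10), above Chil4 alone, and at 2 weeks at 216.7 ± 79.05 per kb (SD, n = 10), within 1 SD of Il4ra at 183.4 ± 48.67 per kb (SD, n = 10). The last in each group was Chil4.

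The ligands and the other genes of the pathway were taken from lists made for this work, 77 genes of which 69 passed the filter. The lists were chosen with earlier results of these data known. Their counts and p-values are therefore not independent of that choice. Of the 69, 22 rose and 7 fell at 2 weeks of bleomycin, and 18 rose and 10 fell at 4 weeks (limma, same criteria). Of all genes, 9.3% rose and 7.43% fell at 2 weeks, and 10.5% rose and 7.37% fell at 4 weeks. At 6 weeks of recovery 4 rose and 5 fell, and at 10 weeks 2 rose and 4 fell, where 5.04% and 3.05% of all genes changed. Between 2 and 4 weeks 1 rose and 2 fell, where 2.35% of all genes changed. These shares stand beside the counts of cell type markers in the same comparisons too. Between 6 and 10 weeks of recovery the count was 0 (limma, with 5 at an unadjusted p below 0.05, 0 with edgeR and 1 with DESeq2). Of all genes 0.088% changed there (limma).

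The cytokines that start the program were close to the floor. Il4 had a median normalized count of 3.742 with saline and 6.399 at 2 weeks, and Il13 4.782 and 3.673, and neither passed in any comparison with saline at this depth. Il5, Il9 and Il25 did not pass the filter. Of the 4 ligand and alarmin genes tested, the 1 that rose was Il33, an alarmin released by damaged epithelial and stromal cells: its mean was 779.8 ± 197 (SD, n = 10) at 2 weeks against 476.7 ± 131 (SD, n = 10) with saline, a log2 difference of 0.74 ± 0.16 (SE, limma, adjusted p = 0.000231). Without saline mouse 1 it was 0.58, just under the fold threshold. Il33 was still higher after 6 weeks of recovery (1.02) and after 10 weeks (0.63). Both values include saline mouse 1, and that at 10 weeks was near the fold threshold (0.585 on the log2 scale).

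Of 14 signaling genes, 3 rose and 1 fell at 2 weeks and likewise at 4 weeks. Of all genes 16.7% and 17.9% changed in these comparisons. Il2rg, the common gamma chain, rose by 1.22 ± 0.19 (SE) at 2 weeks (limma, adjusted p = 2.15e-06). Socs3, a feedback inhibitor of cytokine signaling best known downstream of IL-6, rose by 1.19 ± 0.1 (SE) at 4 weeks (limma, adjusted p = 1.72e-12), and Jak3, the kinase bound to the gamma chain, by 0.63 ± 0.15 (SE, limma, adjusted p = 0.000603), or 0.5 and under the fold threshold without saline mouse 1. Irf4, a transcription factor required for alternative activation in mouse macrophages, fell by 1.04 ± 0.11 (SE) on the log2 scale at 4 weeks (limma, adjusted p = 1.58e-10) and was still lower after 6 and 10 weeks of recovery (-0.71 and -0.64). The median count of Stat6 was 1637 with saline, 1659 at 2 weeks and 1515 at 4 weeks, and it did not pass.

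The 20 further targets of IL-4 or IL-13 moved in both directions: 4 rose and 3 fell at 2 weeks, 4 rose and 6 fell at 4 weeks, and the median log2 difference was -0.01 and -0.22. Of all genes, 9.3% rose and 7.43% fell at 2 weeks, and 10.5% and 7.37% at 4 weeks. Ch25h, which makes 25-hydroxycholesterol, rose by 2.2 ± 0.25 (SE) at 4 weeks (limma, adjusted p = 1.18e-09), the chemokine gene Ccl17 by 1.58 ± 0.3 (SE, limma, adjusted p = 4.36e-05) and the beta-glucan receptor gene Clec7a by 1.33 ± 0.18 (SE) at 2 weeks (limma, adjusted p = 1.04e-07). The eotaxin gene Ccl24 fell from 121.2 ± 66.5 (SD, n = 10) with saline to 19.8 ± 10.1 (SD, n = 10) at 4 weeks, a log2 difference of -2.59 ± 0.33 (SE, limma, adjusted p = 1.79e-08). Fcer2a, the low-affinity IgE receptor of B cells and macrophages, fell to a mean of 1.737 ± 1.02 (SD, n = 10) at 2 weeks from 8.68 ± 6.72 (SD, n = 10), a log2 difference of -1.65 ± 0.38 (SE, limma, adjusted p = 0.000499). Between 2 and 4 weeks the 3 genes of the pathway lists that passed were Ccl17 (1.22), Alox15 (-1.28) and Cxcl9 (-1.62), of which Alox15 is named after its value was seen.

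Of the 10 tested genes of arginine and polyamine metabolism, 2 fell at 2 weeks and 8 did not pass. Of all genes 16.7% changed and 7.43% fell there. Arg2, the mitochondrial arginase, fell from 106.7 ± 59.3 (SD, n = 10) to 41.45 ± 13.9 (SD, n = 10), a log2 difference of -1.26 ± 0.21 (SE, limma, adjusted p = 5.32e-06). Slc7a1, an importer of arginine, differed by -0.81 ± 0.23 (SE, limma, adjusted p = 0.0048), or -0.58 and just under the fold threshold without the 2 mice that stood apart. The relatives of Retnla moved in opposite directions at 2 weeks: Retnlg, known from neutrophils, rose by 1.66 ± 0.52 (SE, limma, adjusted p = 0.0105, or 0.0551 in a fit of these 2 groups alone), and Retn, the resistin gene of fat cells, fell by 1.33 ± 0.27 (SE) on the log2 scale (limma, adjusted p = 0.000144). The 2-week mouse with the most Retnlg had 799.8 against a group median of 29.68, and without the 2-week mouse 2 the difference was 1.18 (limma, adjusted p = 0.0289). Of the other chitinase family genes, Chit1, Chid1 and Ovgp1 were tested and lay between -0.2 and 0.22 at 2 and 4 weeks, none past the criteria (limma).

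Of the 16 genes of classical activation, 13 rose at 2 weeks and 10 at 4 weeks, with median log2 differences of 1.23 and 1.04. The share of all genes that rose was 9.3% and 10.5%. Whether this list differs from the others was not tested. Fpr2, a receptor for formyl peptides, rose by 3.19 ± 0.28 (SE) at 2 weeks (limma, adjusted p = 1.71e-12), the interferon-induced chemokine gene Cxcl9 by 2.62 ± 0.27 (SE, limma, adjusted p = 7.42e-11) and Il6 by 2.27 ± 0.37 (SE, limma, adjusted p = 3.68e-06). Of the 16 genes, 13 fell between 4 weeks of bleomycin and 6 weeks of recovery, where 7.14% of all genes fell. At 6 weeks of recovery 1 was still higher than saline and at 10 weeks 1, where 5.04% and 3.05% of all genes changed.

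**Figure D4:**
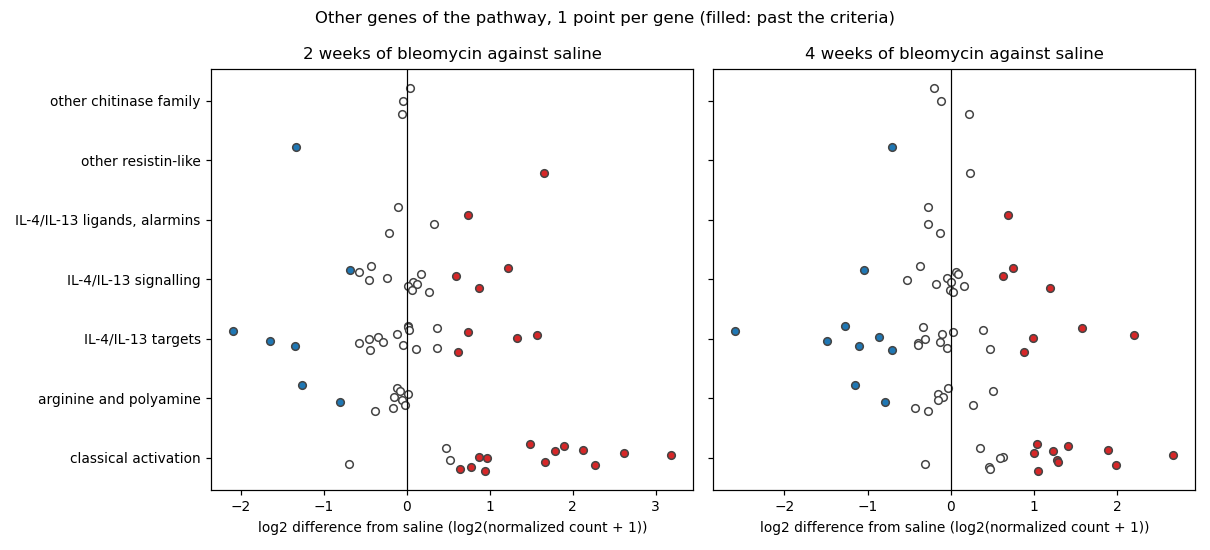
Log2 difference from saline of each tested pathway gene outside the 9 members, at 2 weeks (left) and 4 weeks (right) of bleomycin, on the log2(normalized count + 1) scale; each point is a gene, filled red or blue where it rose or fell past the criteria. The classical activation genes lie mostly to the right of 0 (median 1.23 and 1.04), and the IL-4/IL-13 targets spread to both sides (median -0.01 and -0.22).

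Markers of several cell types moved in the same comparisons as the members. The summed macrophage markers ranged from 12904 to 29397 with saline, 32378 to 91784 at 2 weeks, 32613 to 61180 at 4 weeks, 18355 to 26458 at 6 weeks of recovery and 14374 to 21465 at 10 weeks, so the treated mice did not overlap the others, the highest macrophage sum being that of the 2-week mouse 2. Summed neutrophil markers ranged from 240 to 464 with saline, 573 to 4376 at 2 weeks and 552 to 1838 at 4 weeks, and 6 of 8 tested rose at 2 weeks, while Mpo and Ngp, made by immature neutrophils, had at most 3 reads in every mouse and Ly6g was not matched. Mast cell markers rose in 5 of 6 genes at 2 and 5 of 6 at 4 weeks. Hair follicle keratins fell in 7 of 7 at 2 and at 4 weeks and varied widely with saline, from 2047 to 220396. The part of these cells in the differences of Chil3, Retnla and the other members was not tested. Of the fibroblast markers 4 of 8 fell at 2 weeks and 2 of 8 at 4 weeks. Keratinocyte markers had 0 genes past the criteria at 2 weeks and 1 of 8 at 4 weeks, and skeletal muscle markers 0 and 1 of 8 (limma).

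**Figure D5:**
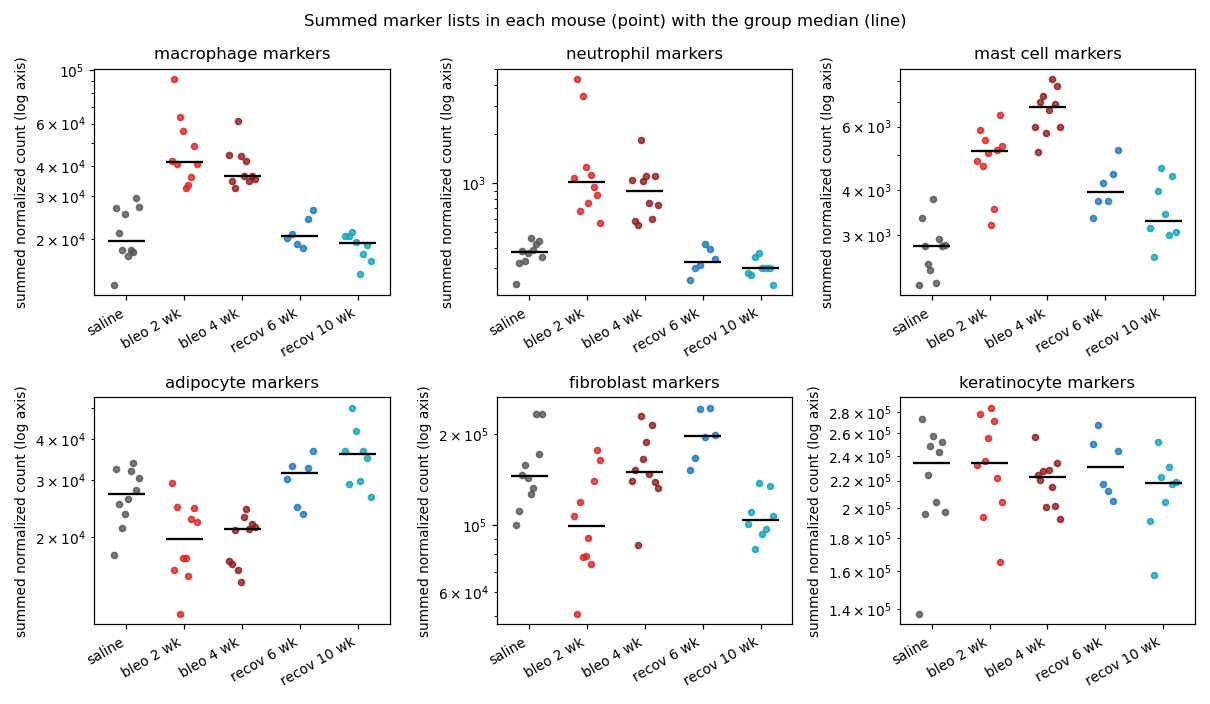
Summed normalized counts (log axis) of the markers of 6 cell types in each of the 44 mice, where each point is a mouse and each line a group median. Macrophage and neutrophil markers are higher in all treated mice than in saline and recovered mice, and the keratinocyte panel shows medians from 217952 to 233981.

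Within groups, few pairs of members passed a test of moving together from mouse to mouse. A pair that did not pass is not thereby shown to be unrelated. Over the 28 pairs of the 8 tested members, correlations of deviations from the group means in the 44 mice were tested by permutation within groups, adjusted over the 28. By Pearson's r, 3 pairs passed (all positive) and by Spearman's rho 0 did. Chil1 and Il4ra had r = 0.44 (adjusted permutation p = 0.0356) and rho = 0.47 (adjusted permutation p = 0.0554), and without the 2 mice farthest on Chil1 r was 0.29. Chil1 and Arg1 had r = 0.54 (adjusted permutation p = 0.0356) and rho = 0.39 (adjusted permutation p = 0.196), and 0.29 without 2 mice. Mrc1 and Il4ra had r = 0.53 (adjusted permutation p = 0.0344) and rho = 0.33 (adjusted permutation p = 0.379), and 0.35 without 2 mice. Without saline mouse 1 and the 2-week mouse 2, Chil1 and Il4ra still passed (r = 0.52, adjusted permutation p = 0.0109) and the others did not, so those rested on these mice. Within the saline group alone, the r of Chil1 with Il4ra was -0.53 (-0.11 without saline mouse 1), against 0.71 to 0.82 in the other groups.

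For Chil3 and Retnla, the members that separated the treated mice, no relation within groups passed the test (r = -0.21, adjusted permutation p = 0.625, rho = -0.13, adjusted permutation p = 0.849). In saline and recovered mice Chil3 had at most 7 reads, so counting error limits this test there. Within the treated groups r was -0.15 at 2 weeks (-0.47 without mouse 2) and -0.56 at 4 weeks. These single-group values were not tested. Among the genes whose mouse-to-mouse deviations were most like those of Mrc1, out of 17036 others, were Rbpj (r = 0.84) and Csf1r (0.83), and those most like Il4ra were Il17ra (0.78), Rab31 (0.74) and Stat3 (0.74). For Chil3 the most alike were Gm7331 (0.51), 2610306M01Rik (0.5) and Rps15a-ps6 (0.49), with the same limit from its low counts outside the treated groups. These are descriptions over 44 mice that share depth and tissue makeup, and the genes are not independent.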

How the data were processed

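Skin RNA of 44 mice was sequenced as 50-base read pairs from stranded libraries. Per the labels and methods, the authors used mm10, STAR 2.4.0 and DESeq2 1.12.3. The deposited unit is a normalized count, a signal, and its values were whole multiples of 1 step per mouse, from which division of counts by 1 size factor per mouse was inferred. The counting tool, its strand setting and its annotation are not given in the sources used here, so close paralogs and overlapping or antisense genes are uncertain. Whole reads were recovered from the steps between values (100.0% within 0.01 read of a whole number in every mouse, with a slightly wider margin at high counts, 8509094 to 15285577 reads). Groups follow the labels, and mice are the replicates.

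Differences were fitted across all genes with limma 3.58.1 (trend, R 4.3.3) on log2(normalized count + 1), keeping the 17037 genes whose mean exceeded 3 and fitting the 5 groups together. A change had an adjusted p (Benjamini-Hochberg) below 0.05 and a fold change above 1.5. The study's methods name DESeq2, which needs reads; limma was used because the deposited values are not reads, and edgeR 4.0.16 and DESeq2 1.42.0 were run on recovered reads as alternatives. The fits were tested on simulated data. Pairs of members were tested with 100000 permutations in Python 3.11.15 (numpy 2.4.6, pandas 2.3.3, scipy 1.17.1, matplotlib 3.10.9). Symbols and positions are of GENCODE vM21 (GRCm38), matched for 42929 of 43411 identifiers.

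The members and the lists of other genes were chosen with earlier results of these data known. Genes named are the 9 members, from each list of genes past the criteria at 2 or 4 weeks the top 3 that rose and the top 2 that fell, and the 3 genes most like Chil3, Mrc1 and Il4ra. Of these, 1 gene is not reported here. Genes of the lists that did not pass (Il4, Il13, Stat6, the other chitinase family genes), single cell markers beside a result (Ear2, Prg2, Epx, Ear1, Mpo, Ngp) and Alox15 were named after their values were seen. Alternatives were a pseudocount of 0.1, no filter, a filter of 10 normalized counts in 6 mice, rescaling by trimmed means, quantile normalization, a fit of just the 2 groups in question, a block for replicate number, both count tests and 42 mice without saline mouse 1 and the 2-week mouse 2; leaving out each of these mice alone was added after the data were seen. The authors' own comparisons were not used.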

Additional observations from a re-analysis of the deposited data

Results flagged for a closer look

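Of 43 sets of values (a member in a group), 8 held a mouse far from the rest of its group by Dixon's test. For normally distributed values chance gives about 1 set in 20. That rate need not hold for these counts, which in some sets were mostly 0. Saline mouse 1 was high for Chil1 (190.8, the others 66.98 to 128.5) and low for Il13ra1 (709.4, the others 1173 to 1648). The 2-week mouse 2 was high for Arg1 (957.2, the others 194.0 to 374.8) and for Il13ra2 (76.73, the others 31.81 to 51.47). Mouse 4 at 6 weeks of recovery was high for Chil1 (183.0, the others 72.93 to 97.79). Saline mouse 3 had 8.293 normalized counts of Chil3, from 7 reads. For Chil4 the values were 3.637 in saline mouse 6, from 3 reads, and 12.66 in mouse 1 at 4 weeks of bleomycin, from 10 reads.

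A difference between 2 and 4 weeks of bleomycin passed the test for Chil3 (-1.23 on the log2 scale, limma, adjusted p = 0.0224) and for Il13ra2 (-0.7, limma, adjusted p = 0.0289). Each was lower at 4 weeks in 10 of 10 mice than the 2-week median. Neither passed in every alternative: the adjusted p (limma) was 0.227 for Chil3 with a pseudocount of 0.1, and 0.0609 for Il13ra2 without the 2-week mouse 2.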

How the results depend on the processing

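The count of members past the criteria was 1 in place of 2 for 4 against 2 weeks of bleomycin with a pseudocount of 0.1 and without the 2-week mouse 2, and 0 in place of 1 for 10 weeks of recovery against saline with only the groups compared. For the other pathway genes the count for 4 against 2 weeks was 3 with limma, 6 with edgeR and 8 with DESeq2, and for 10 against 6 weeks of recovery 0, 1 with DESeq2 and 1 in the 42 mice. The number of member pairs that passed by Pearson's r was 1 in place of 3 in the 42 mice. The cause of these changes was not tested. Uncalled differences for 4 against 2 weeks changed sign for Chil1 (-0.25 with edgeR, -0.26 with DESeq2) and Il4ra (-0.03 as reported and without saline mouse 1, 0.01 with quantile normalization, 0.05 in the 42 mice, 0.05 without the 2-week mouse 2). The other 163 recomputed counts stayed within 1.5 times. The median of all genes moved by at most 0.017 on the log2 scale with rescaling by trimmed means, and by at most 0.022 in size with quantile normalization.

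Replicate numbers showed no pairing of the mice in the median. Over 78 pairs of same-numbered mice the median r of deviations was -0.002 (range -0.691 to 0.38, 18 above 0.1). For mice of other groups with another number the median was -0.004. The spread of those was not compared, so pairing of some mice was not tested. With the number as a block, the members past the criteria were 3 at 2 weeks, 4 at 4 weeks and 2 for 4 against 2 weeks, as without it. Depth limits Chil4, Il4, Il13 and Chil3 outside the treated groups, where values rest on a few reads.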
